A study of Mus musculus with 4 samples.

Results

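The 9 genes described here (Dusp4, Dusp5, Dusp6, Spry2, Spry4, Spred1, Spred2, Etv4 and Etv5) are read as output of the RAS-MAPK pathway. The Dusp, Spry and Spred genes among them encode brakes on it. All 9 were taken by name from 26172 genes listed in either of 2 libraries, and all 9 were listed in both. MC38, a mouse colon carcinoma line, was grown as tumours in mice that were 10 weeks old, and the untreated tumours were taken on day 20. One library came from wild-type mice and one from mice labelled FOXP3 humanized, a change in the host and not in the tumour line. The labels do not say how many animals each library holds. With 1 library for each genotype there is no replicate, so genotype, mouse and library cannot be told apart and no test between them was possible. Every interval given is a 95% interval for the error of counting alone.

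In this pathway, growth factor receptors switch RAS on, and RAS drives the kinases RAF, MEK and ERK in turn. ERK then raises the transcription of its own inhibitors, which is why these transcripts are widely read as a gauge of pathway activity. Dual-specificity phosphatases (Dusp genes) remove the activating phosphates from ERK and related kinases. Sprouty proteins (Spry genes) dampen signalling between the receptors and RAF, and Spred proteins bring the RAS inhibitor neurofibromin to the membrane. Etv4 and Etv5 are ETS-family transcription factors that the pathway induces and that are often high in tumours with active receptor or RAS signalling.

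The levels are for deep barcodes, meaning droplets with 5000 or more unique molecular identifiers (UMIs) and no UMI of Cd3e, Cd3d, Cd3g or Ptprc. There were 6705 of them among 7691 barcodes in the wild-type library (median 16866 UMIs) and, in the humanized one, 9671 among 11087 (median 12522 UMIs). The sample label says immune cells, but these barcodes were rich in the mesenchymal gene Vim, at 2870 and 4087 CPM (counts in 1e+06 UMIs), and held the RNA-editing enzyme gene Apobec1 at 239 and 88.0 CPM. Summed T cell markers stood at 2.42 and 2.18 CPM and summed myeloid markers at 5.30 and 5.05 CPM, with the CD3 genes and Ptprc at 0 by the choice of barcodes. Summed fibroblast markers stood at 52.4 and 49.6 CPM, and their part in the member values was not tested. The epithelial genes Krt8 (0.999 and 0.285 CPM) and Epcam (0.178 and 0.00711 CPM) were also near 0, so these barcodes are named here by the rule that chose them. The libraries share 1551 barcode names, which are serial labels, and 0 of those pairs had the same UMI total.

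RefSeq promoter windows (build GRCm38.p6, 250 bases before to 50 bases after a start site) were found for 6 of the 9 genes. Those printed are Dusp5 and Dusp6, which followed other ERK-induced transcripts most closely from cell to cell, and Spry2, which differed most between the libraries. Each is written 5′ to 3′ on the gene's strand, with motif matches on either strand in capitals.

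Dusp5, chr19:53528895-53529194, plus strand: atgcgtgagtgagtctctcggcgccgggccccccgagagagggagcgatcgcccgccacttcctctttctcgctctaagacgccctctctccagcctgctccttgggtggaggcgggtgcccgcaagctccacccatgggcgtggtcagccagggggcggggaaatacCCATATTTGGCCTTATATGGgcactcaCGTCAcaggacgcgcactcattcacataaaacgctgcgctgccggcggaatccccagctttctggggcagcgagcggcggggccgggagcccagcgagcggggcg

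Dusp6, chr10:99262981-99263280, plus strand: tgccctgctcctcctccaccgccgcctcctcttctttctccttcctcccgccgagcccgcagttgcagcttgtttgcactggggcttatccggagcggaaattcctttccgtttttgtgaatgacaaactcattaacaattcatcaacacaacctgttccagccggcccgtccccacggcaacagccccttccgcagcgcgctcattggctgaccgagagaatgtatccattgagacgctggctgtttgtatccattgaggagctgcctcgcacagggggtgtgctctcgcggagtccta

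Spry2, chr14:105896770-105897069, minus strand: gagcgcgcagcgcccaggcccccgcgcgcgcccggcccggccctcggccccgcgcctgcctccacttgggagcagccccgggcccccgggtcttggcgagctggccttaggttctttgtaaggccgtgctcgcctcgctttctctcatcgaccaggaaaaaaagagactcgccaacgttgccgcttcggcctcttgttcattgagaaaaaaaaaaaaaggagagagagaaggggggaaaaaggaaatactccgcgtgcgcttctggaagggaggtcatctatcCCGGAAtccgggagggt

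The motifs searched on both strands were the CArG box bound by serum response factor, the ETS motif CCGGAA, the AP-1 motif TGANTCA and the cyclic AMP response element core TGACG. The Dusp5 window held 2 CArG boxes, starting 82 and 72 bases before the start site, and 1 cyclic AMP response element core on the opposite strand, 55 bases before it; none of the 3 matches overlap. Of all 32817 windows of this length, 1.63% held a CArG box and 0.0183% held 2 or more. The Spry2 window held 1 ETS motif, downstream of its start site, a motif found in 14.9% of windows, and the Dusp6 window held none of them. Outside the printed windows, Spred2 held 1 cyclic AMP response element core (found in 20.8% of windows), while Spred1 and both Etv5 windows held none. The AP-1 motif, found in 7.81% of windows, was in no window of these genes. A match is a run of letters and not evidence of binding.

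Spry2 was the member whose level differed most between the libraries, and none of the 9 reached a 1.5-fold difference. Levels are UMIs of the gene over all UMIs of the deep barcodes, in CPM. They are not divided by transcript length, so no order of levels between genes is drawn. A gene was called when its level differed by at least 1.5-fold with an interval that left out equality, among 13728 genes with 100 or more UMIs. Of the 9, 0 were called higher, against 0.634% of all genes, and 0 were called lower, against 12.9% of all genes. Their median log2 ratio, humanized over wild-type, was -0.19, and that of all genes was -0.21.

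Among the phosphatases, Dusp4, a nuclear enzyme that acts on ERK and the stress kinases, was at 30.4 CPM (interval 29.4 to 31.4) in the wild-type library and 30.1 CPM (29.2 to 31.0) in the humanized one. The nuclear, ERK-directed Dusp5 was at 23.4 CPM (22.6 to 24.3) and 21.6 CPM (20.9 to 22.4). Dusp6, its cytoplasmic counterpart, was at 23.9 CPM (23.0 to 24.7) and 20.9 CPM (20.2 to 21.7). The Dusp4 intervals overlap nearly entirely, whereas those of Dusp5 and Dusp6 do not overlap and the humanized values are the lower ones. The log2 ratios were -0.01 (-0.08 to 0.05) for Dusp4, -0.12 (-0.19 to -0.04) for Dusp5 and -0.19 (-0.26 to -0.12) for Dusp6. In barcodes of 5000 to 10000, 10000 to 20000, 20000 to 40000 and more UMIs, the Dusp6 log2 ratio was -0.19, -0.18, -0.08 and 0.05. That of Dusp5 was -0.14, 0.07, -0.16 and -0.05. The interval left out 0 in the second of these bins alone for Dusp6 and in the third alone for Dusp5. Both genes were also higher in the deepest than in the shallowest bin of each library. The part of depth in their pooled differences was not tested.

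Spry2, a Sprouty inhibitor, was at 11.6 CPM (11.0 to 12.2; 1502 UMIs) in the wild-type library and 7.84 CPM (7.38 to 8.32; 1102 UMIs) in the humanized library. Its log2 ratio was -0.57 (-0.68 to -0.46), a ratio of 0.674 that falls just short of 1.5-fold, and 13.6% of all genes were as low or lower. After thinning every barcode to 5000 UMIs, Spry2 was seen in 5.13% of wild-type barcodes (4.61 to 5.69) and 3.84% of humanized barcodes (3.46 to 4.24). Unthinned, the shares were 18.2% and 10.1%. The level was lower in the humanized library at every depth examined: the log2 ratio was -0.43 between 5000 and 10000 UMIs, -0.47 from 10000 to 20000, -0.55 from 20000 to 40000 and -0.76 above that. Its relative Spry4 was sparse, at 1.83 CPM (1.60 to 2.08; 236 UMIs) and 1.53 CPM (1.33 to 1.75; 215 UMIs), and the interval of its ratio held 0 (-0.26, -0.53 to 0.02).

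Spred1, which acts with neurofibromin on RAS, was at 23.97 CPM (23.1 to 24.8) and 19.5 CPM (18.8 to 20.2), a log2 ratio of -0.30 (-0.37 to -0.22). Spred2, its paralogue, was at 34.3 CPM (33.3 to 35.3) and 31.4 CPM (30.4 to 32.3), a log2 ratio of -0.13 (-0.19 to -0.07). For both genes the humanized value lay below the wild-type interval. By depth bin the log2 ratio was -0.43, -0.35, -0.13 and -0.47 for Spred1, each with an interval below 0. For Spred2 it was -0.22, -0.09, -0.08 and 0.02, with an interval below 0 in the first bin alone.

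The pair of ETS factors went different ways. Etv4 was at 35.2 CPM (34.1 to 36.2) and 36.8 CPM (35.8 to 37.8), and it was the only member whose ratio had an interval above 0 (log2 0.06, 0.01 to 0.12). Etv5 was at 23.1 CPM (22.3 to 23.9) and 19.1 CPM (18.4 to 19.9), a log2 ratio of -0.27 (-0.35 to -0.20). Etv5 also varied with the depth of a barcode: from the shallowest to the deepest of 4 depth bins it went from 15.3 to 28.0 CPM in the wild-type library and from 13.4 to 30.6 CPM in the humanized library. The humanized library is the shallower one, and within the 4 bins the Etv5 log2 ratio was -0.19, -0.25, -0.09 and 0.13, with an interval that left out 0 in the second bin alone. The part of depth in the pooled Etv5 difference was not tested further. Etv4 was above its wild-type level in all 4 bins, by log2 0.16, 0.18, 0.08 and 0.12, with an interval above 0 in the second.

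Of the 9 intervals, 6 lay below 0, 1 above it and 2 held it. Since the median of all genes was itself at -0.21, the members were also read against that median: 4 then lay above it with their whole interval (Dusp4, Dusp5, Spred2 and Etv4, by log2 0.20, 0.10, 0.08 and 0.28) and 2 below it (Spry2 and Spred1, by -0.36 and -0.09). Median-of-ratios scaling over well-counted genes, which moves the median gene to -0.02, put the same 4 above 0, with Dusp4 at 0.18, Dusp5 at 0.08 and Spred2 at 0.06, and put Spry2, Spred1 and Etv5 below it. The sign for Dusp4, Dusp5 and Spred2 therefore depends on the scaling, and that for Dusp6 too (0.0016 after it). Spry2 (-0.38), Spry4 (-0.07), Spred1 (-0.11), Etv5 (-0.08) and Etv4 (0.26) kept their sign.

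**Figure D1:**
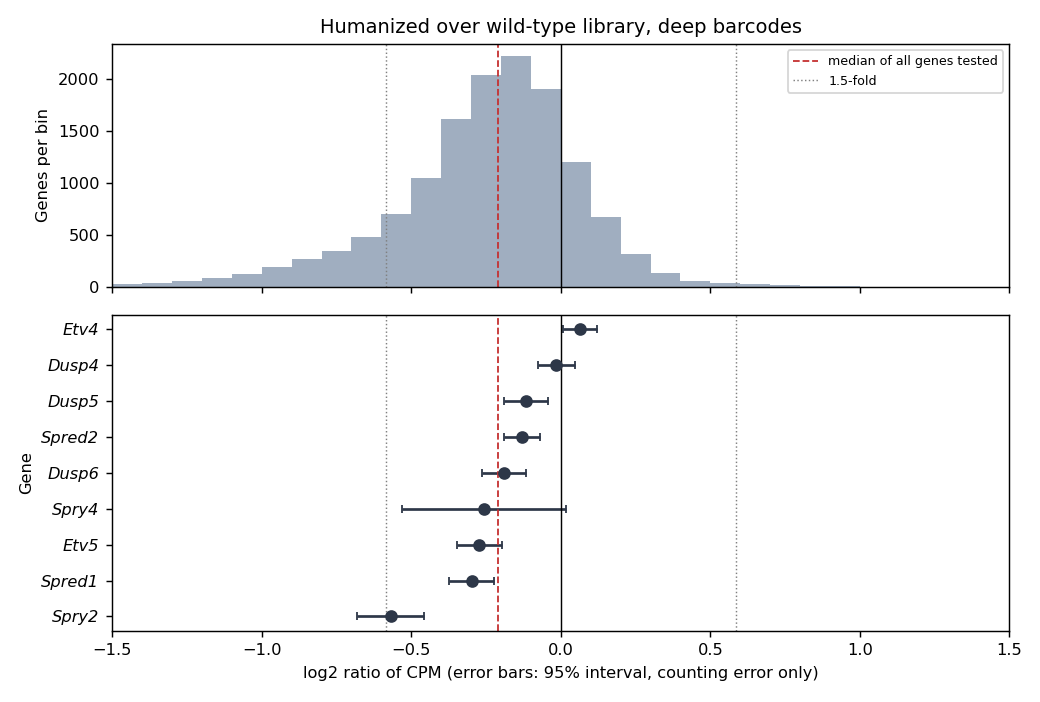
Upper panel: number of genes in each bin of the log2 ratio of CPM, humanized over wild-type library, over deep barcodes, within 1.5 either side of 0. Lower panel: the 9 genes on the same axis with 95% counting intervals; Spry2 (-0.57) stands lowest, just inside the 1.5-fold line, and Etv4 (0.06) highest, while the median of all genes (dashed) is at -0.21.

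The rest of the pathway was read by the same call, by which 0.634% of all 13728 genes were higher and 12.9% lower. Counts in pathway lists this short are given beside those shares and are not read as a result about a list. Of 13 growth factor receptors with enough UMIs, 0 were higher and 2 lower (Fgfr2, log2 -0.62, and Flt1, -0.61), and the 3 with the most UMIs were Axl (134 and 140 CPM), Fgfr1 (119 and 109 CPM) and Epha2 (84.3 and 79.6 CPM). Of 10 receptor ligands, 1 was higher (Fgf7, log2 1.39, from 26 and 74 UMIs), and the most counted were Pdgfa (128 and 131 CPM), Vegfa and Nrg1. Of 14 adaptors and exchange factors, 1 was lower (Rapgef1, -0.62), and Grb2, which links receptors to RAS activation, was the most counted (88.6 and 73.8 CPM), before Crk and Ptpn11.

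Of 18 genes for RAS, RAF, MEK, ERK and their scaffolds, 1 was lower (the scaffold Ksr1, -0.65), against 12.9% of all genes. The most counted were Iqgap1 (100.4 and 94.4 CPM), Map2k2 (98.2 and 89.0 CPM), which encodes MEK2, and Nras (80.6 and 84.7 CPM). None of 8 negative regulators of RAS, mostly GTPase activators, was called. The most counted were the GTPase activators Rasa3 (34.5 and 34.4 CPM) and Nf1 (27.7 and 22.05 CPM), and Lztr1 (26.9 and 22.5 CPM), which is not a GTPase activator. In a list of other phosphatases and regulators of the pathway, 1 of 15 genes was higher, against 0.634% of all genes. It was Ier3 (218 and 396 CPM, log2 0.86), which is neither a phosphatase nor an established brake on ERK. Pebp1 was at 619 and 675 CPM and Dusp1 at 80.8 and 100.5 CPM. Ier3 was also the 1 call among 23 other ERK-induced transcripts, whose median was -0.03 and whose most counted genes included Ccnd1 (692 and 684 CPM), Hmga1 and Emp1. No immediate-early gene was called (13 measured, with Jun at 630 and 639 CPM, Jund and Ier2 the most counted). None was called in a list of other ETS-family genes either (15 measured, with Elf2, Ets1 and Elk3 the most counted). That list also holds Cic, which is not an ETS factor. Outside the pathway, 8 of 13 sterol synthesis genes were higher, against 0.634% of all genes, and 7 of 15 interferon-response genes were lower, against 12.9%. The libraries thus differ in other programmes too, whose part in the member values was not tested.

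In barcodes of T cells, Dusp5 was the exception among the 9. T-marked barcodes (under 5000 UMIs with 2 or more CD3 UMIs) numbered 84 (wild-type) and 134 (humanized), with median depths of 1797 and 1568 UMIs. Dusp5, known in T cells as a transcript induced by interleukin-2, was at 630 CPM (514 to 765; 102 UMIs) in the wild-type T-marked barcodes, 26.9-fold its deep-barcode level (21.8 to 32.8). In the humanized library it was at 483 CPM (399 to 580; 114 UMIs), 22.3-fold (18.4 to 26.9). The 2 T-marked intervals overlap, and both lie far above the deep values. With every barcode thinned to 1000 UMIs, 29.8% of wild-type and 35.1% of humanized T-marked barcodes held a Dusp5 UMI, against 2.21% and 1.99% of deep barcodes; unthinned, the T-marked shares were 52.4% and 49.3%.

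No other member was called in the T-marked barcodes of both libraries. In each library, 7 of the 9 would be expected to give 3 or more T-marked UMIs at equal levels, the minimum set for the comparison: 1 was higher, against 10.7% of 5403 genes, and 0 were lower, against 16.2%. Dusp4 had 9 UMIs in each library (55.6 and 38.1 CPM), Etv4 had 1 and 4, Etv5 had 0 and 1, and Dusp6 had 0 and 5. Spry4 had 0 UMIs in either; 3 counts would be 18.5 CPM in the wild-type library, so its deep level could not have been seen there.

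**Figure D2:**
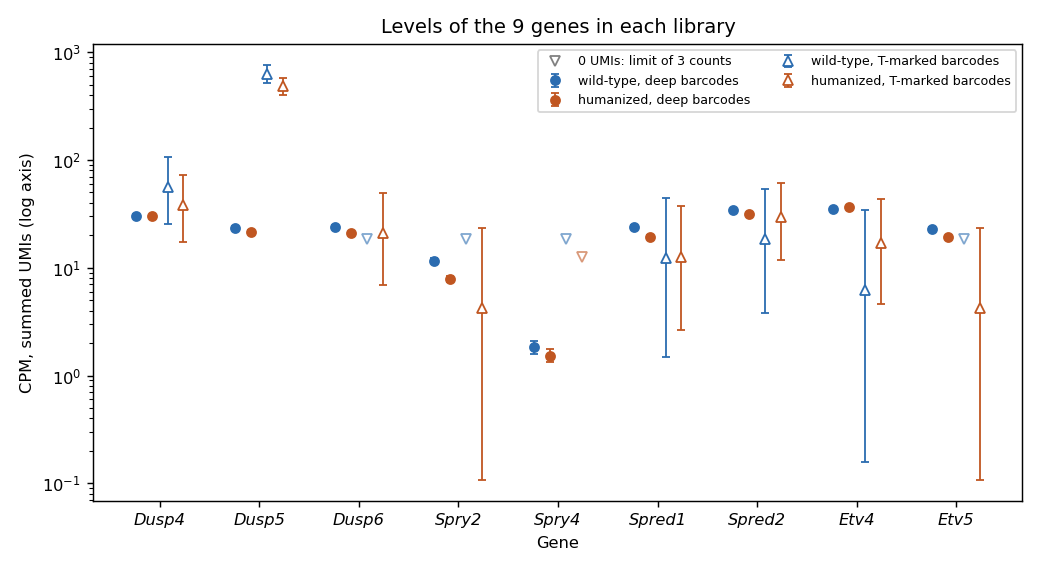
Level of each gene in CPM on a log axis, for deep (filled circles) and T-marked barcodes (open triangles pointing up) of each library, with 95% Poisson intervals; open triangles pointing down mark 0 UMIs and stand at the level of 3 counts. Dusp5 in T-marked barcodes (630 and 483 CPM) stands apart from the other values.

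How the 9 genes varied from cell to cell was measured within each library, on counts thinned to 5000 UMIs. Dusp4 and Dusp5 were the most uneven for their level. The coefficient of variation beyond counting noise was 1.34 and 1.28 for Dusp4, against a median of 0.565 and 0.524 for genes of like level, and 1.23 and 1.20 for Dusp5, against 0.600 and 0.564. Before thinning, the barcode with the most Dusp4 UMIs held 27 in the wild-type library and 13 in the humanized one. For Dusp5 the highest barcode held 9 and 33 UMIs. The part of such single barcodes in these coefficients was not tested. Dusp6 stood at 1.01 and 1.09, and Etv4 at 0.783 and 0.615. Spry2 was below the median of genes of like level, at 0.519 and 0.278 against 0.750 and 0.741, with 28.9% and 17.7% of those genes as flat or flatter. Spred1 (0.626 and 0.318 against 0.593 and 0.571) and Spred2 (0.498 and 0.606 against 0.561 and 0.526) changed side between the libraries. Etv5 was above its median in both, at 0.788 and 0.649 against 0.602 and 0.583. The Spry4 counts are too few for this measure.

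Between each other the 9 genes were only weakly correlated over single barcodes. The measure was the Pearson correlation of count residuals that take out the depth of each barcode, over 6705 and 9671 barcodes, and counts of a few UMIs keep any such value low. None of the 36 pairs reached 0.1 in both libraries, a level that 0.372% of 46046406 pairs of detected genes reached. The median over the 36 pairs was 0.0238 (wild-type) and 0.0201 (humanized), and over all gene pairs 0.00691 and 0.00629. Of the 36, 25 were above 0 in both libraries, against 50.04% of all pairs. The highest were Dusp6 with Etv5 (0.0637 and 0.0622), Dusp6 with Etv4 (0.0642 and 0.0592), Etv4 with Etv5 (0.0832 and 0.0551) and Dusp5 with Dusp6 (0.0743 and 0.0526). Dusp4 stood off from the others: its 8 pairs had medians of -0.00842 and -0.000442, and its pair with Etv4 was the lowest of all (-0.0421 and -0.0126). Values this small in sparse counts describe the sample and are not read further.

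**Figure D3:**
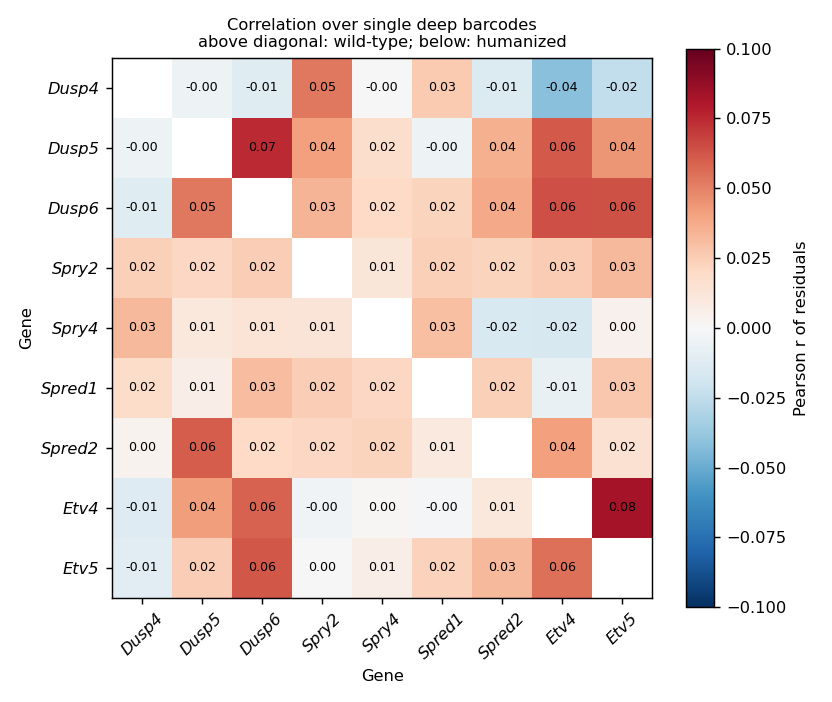
Pearson correlation of count residuals over single deep barcodes for each pair of genes, wild-type above the diagonal and humanized below it; the colour scale ends at 0.1 either side of 0. Dusp5, Dusp6, Etv4 and Etv5 hold the highest pairs (up to 0.0832), and the Dusp4 row and column lie around 0.

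The joint variation was also read as levels, from UMIs summed over many barcodes. Deep barcodes of each library were ranked by the level of the other 8 members and split into 4 equal groups. Dusp5 went from 17.8 CPM in the lowest group to 27.4 in the highest in the wild-type library and from 15.4 to 25.3 in the humanized one. Dusp6 went from 18.8 to 29.0 CPM and from 15.9 to 25.4. These 2 of the 9 were at least 1.5-fold higher in both libraries, against 1.97% of other genes ranked by the whole set. Dusp4 did not follow, at 34.5 and 29.5 CPM in the wild-type library and 29.7 and 29.3 in the humanized one. From the shallowest to the deepest depth bin, Dusp5 went from 19.0 to 24.1 CPM (wild-type) and from 17.3 to 23.2 CPM (humanized). Dusp6 went from 20.1 to 27.0 CPM and from 17.7 to 28.0 CPM. This ranking was not repeated on thinned counts, and the part of depth in it was not tested.

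Ranked by 22 other ERK-induced transcripts, which hold none of the 9, most members followed. In both libraries 7 of the 9 (Dusp5, Dusp6, Spry2, Spry4, Spred2, Etv4 and Etv5) were at least 1.5-fold higher in the highest than in the lowest group of barcodes, against 5.79% of other genes. Dusp5 stood at 12.6, 16.8, 25.2 and 36.9 CPM from the lowest to the highest group of the wild-type library. In the humanized library it stood at 11.4, 15.3, 22.1 and 35.1 CPM, so the level climbed at each step in both, by log2 1.55 (1.39 to 1.72) and 1.62 (1.46 to 1.79) overall. Dusp6 stood at 14.1, 21.0, 26.1 and 32.7 CPM and at 12.3, 18.7, 21.6 and 29.3 CPM, a climb of log2 1.21 (1.05 to 1.38) and 1.26 (1.10 to 1.43). Spry2 climbed by 0.91 and 0.81, Spry4 by 1.08 and 1.19 on few counts, Etv5 by 0.75 and 0.83, Spred2 by 0.72 and 0.66 and Etv4 by 0.62 and 0.67. Median depth was 15803 UMIs in the lowest and 18774 in the highest group of the wild-type library and 11505 and 14475 in the humanized library. With every barcode thinned to 5000 UMIs before scoring, the Dusp5 difference was 1.44 and 1.64. Dusp5 was also called higher in both libraries by other lists. It was called with Dusp6 and Etv5 by EGF and FGF family ligands (1.65% of other genes). With Spry4 it was called by immediate-early genes (1.28%) and by other phosphatases and regulators (0.992%). Alone it was called by the RAS to ERK list (1.40%), p38 and JNK genes (0.470%) and targets of the factor YAP (0.365%).

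Spred1 and Dusp4 were the members that did not follow that list. Spred1 differed by log2 0.16 and 0.24, and Dusp4 by -0.19 (-0.32 to -0.06) and -0.20 (-0.32 to -0.08). As a correlation over barcodes, the list score gave 0.246 and 0.210 with Dusp5, a value matched in both libraries by 0.313% of genes, 0.185 and 0.165 with Dusp6 (1.28% of genes), and -0.0103 and -0.00675 with Dusp4.

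Dusp4 was instead higher where the hypoxia and heat shock lists were high. Ranked by 15 hypoxia and glycolysis genes, Dusp4 stood at 20.1, 28.5, 30.7 and 44.2 CPM in the wild-type library and at 21.5, 27.1, 28.3 and 44.5 CPM in the humanized one. That is a climb of log2 1.13 (1.01 to 1.26) and 1.05 (0.93 to 1.17), in a ranking by which 1 of the 9 members and 1.08% of other genes were called higher in both. Ranked by 8 heat shock genes it went from 21.5 to 46.3 CPM and from 21.6 to 46.2 CPM, again 1 of the 9 members against 0.887% of other genes. By 12 genes of the integrated stress response it went down, from 35.2 to 21.65 CPM and from 33.8 to 23.8 CPM, the second under 1.5-fold. In that ranking 0 members were called in both libraries, against 1.82% of other genes higher and 0.198% lower. By sterol synthesis genes Dusp4 also went down, from 38.4 down to 20.9 CPM and from 38.8 down to 22.2 CPM, 1 of the 9 members against 0.637% of other genes. In the same ranking 1 of the 9, Etv4, was called higher in both libraries, against 3.12% of other genes. Dusp6 and Etv4 were the opposite of Dusp4 by the hypoxia list, at log2 -0.53 and -0.47 for Dusp6 and -0.49 and -0.46 for Etv4, under 1.5-fold. The genes most like Dusp4 over barcodes, by the lower of the 2 libraries' correlations, were the metallothioneins Mt1 (0.218 and 0.242) and Mt2 (0.202 and 0.212), which bind metals, and Ftl1 (0.195 and 0.193), the ferritin light chain.

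**Figure D4:**
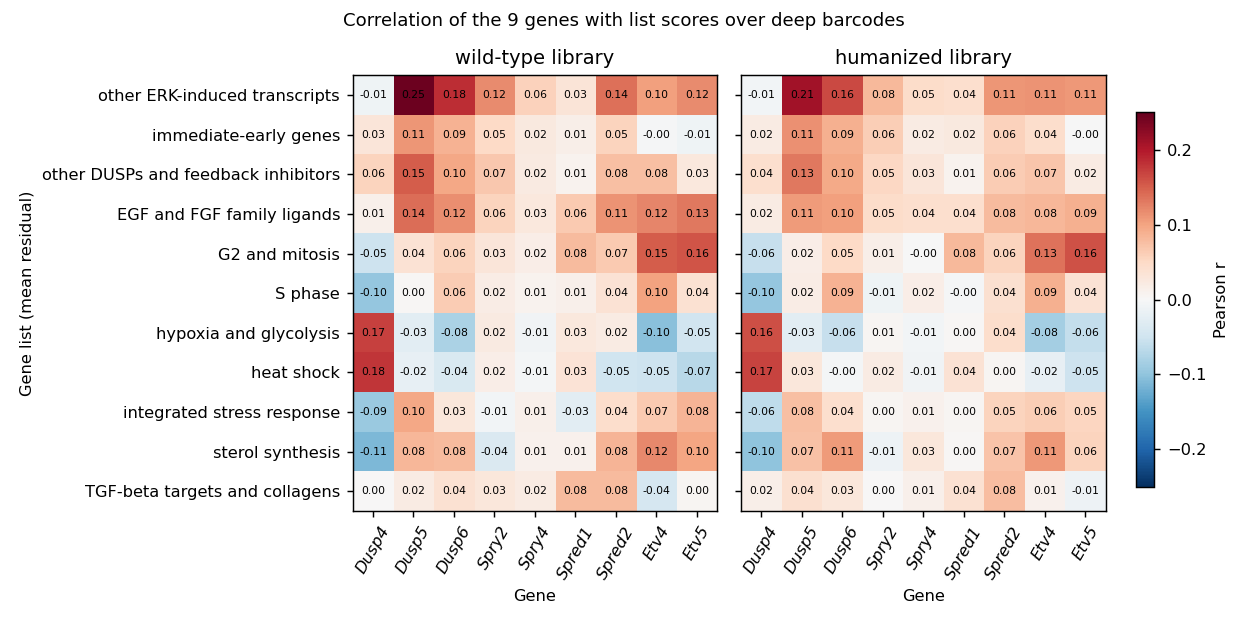
Pearson correlation over deep barcodes between each gene's residual and the mean residual of 11 gene lists (members left out), in each library. The top row is highest for Dusp5 (0.246 and 0.210), and Dusp4 alone is above 0.1 for hypoxia and heat shock.

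Etv4 was higher where genes of G2 and mitosis were high, a ranking in which many other genes were too. By 20 genes of G2 and mitosis, Etv4 went from 28.5 to 43.5 CPM in the wild-type library and from 29.3 to 46.2 CPM in the humanized one, the 1 member of 9 called higher in both, against 6.03% of other genes. Etv5 went from 21.4 to 29.6 CPM, under 1.5-fold, and from 15.3 to 26.9 CPM; with each barcode thinned to 5000 UMIs the log2 differences were 0.73 (0.44 to 1.02) and 1.17 (0.87 to 1.47), past 1.5-fold in both, against 0.47 and 0.82. By the S phase list 0 members were called in both libraries, against 6.78% of other genes higher and 0.648% lower. Etv4 was 1.41-fold and 1.44-fold higher by that list and Etv5 1.18-fold and 1.20-fold higher. The correlation of Etv5 with the G2 and mitosis list, 0.158 and 0.160, was matched in both libraries by 2.94% of genes. The genes most like Etv5 were Pimreg (0.132 and 0.131), the cyclin gene Ccnb1 (0.129 and 0.132) and the topoisomerase gene Top2a (0.129 and 0.135). Spred1 also had cell division genes as its nearest, Smc4 (0.0903 and 0.0948) and Top2a (0.0888 and 0.0718), beside D17H6S56E-5. Depth did not rise evenly with this score: in the wild-type library the median was 20280 UMIs in the lowest group, 11409 in the second and 22428 in the highest.

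**Figure D5:**
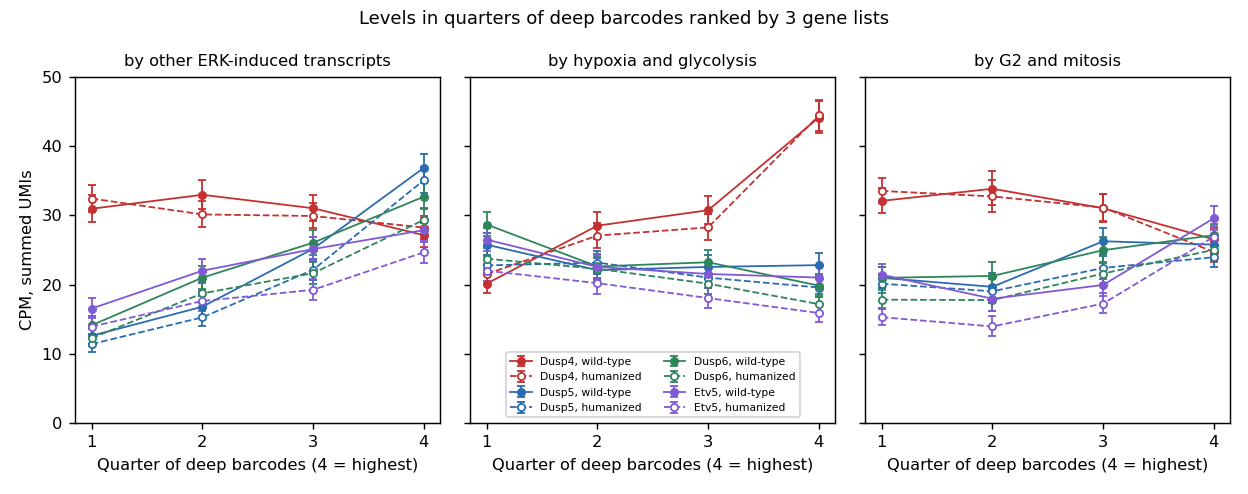
Level of 4 genes in CPM, with 95% Poisson intervals, in 4 equal groups of deep barcodes ranked by the score of each of 3 gene lists (solid, wild-type; dashed, humanized). Dusp5 climbs most with other ERK-induced transcripts (12.6 to 36.9 and 11.4 to 35.1 CPM), Dusp4 with hypoxia and glycolysis (20.1 to 44.2 and 21.5 to 44.5 CPM).

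The nearest genes of the other members were given by the same rule. For Dusp5 they were Tnfrsf12a (0.193 and 0.158), the receptor for TWEAK, Actb (0.197 and 0.149) and the immediate-early response gene Ier5 (0.178 and 0.142). For Dusp6 they were the splicing factor genes Srsf2 (0.148 and 0.155) and Srsf3 (0.135 and 0.134) and the small GTPase gene Rap1b (0.151 and 0.127). Spry2 had Klf6 (0.0920 and 0.0844), Jun (0.0776 and 0.0629) and Sox9 (0.101 and 0.0596), and Spry4 had Flna (0.0453 and 0.0515), Hbegf and Prrc2a. Spred2 had Cald1 (0.130 and 0.108), Rbm39 and Ccnd1, and Etv4 had Actb (0.212 and 0.181), Eif4a1 and Tuba1c. For the mean residual of all 9, the 10 most alike were Actb (0.218 and 0.186), Sox9, Jun, Cald1, Ccnd1, Map2k3, Top1, Srrm2, Hnrnpa2b1 and Hmgb1, and among the most opposed were Tpt1 (-0.193 and -0.154), Rack1, Eef1b2 and Fau. These opposed genes are among the most abundant transcripts, with a UMI in every deep barcode, and their part in these likenesses was not tested.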

How the data were processed

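Single-cell libraries were made in DNBelab C droplets from cells isolated on Percoll, per the labels' protocols. The deposited values are UMI counts per gene and barcode, made with PISA 1.0 per the file headers and with build GRCm39 per the submitters' processing notes; the aligner is not given in the sources used here. The 2 oligo libraries were not analysed here. Deep barcodes, CPM, exact Poisson and conditional intervals and binomial (Clopper-Pearson) shares were computed in Python 3.11.15 with numpy 2.4.6 and scipy 1.17.1. Residuals assumed negative binomial counts with theta 100, clipped at the square root of the barcode number; genes with a UMI in 5% of deep barcodes of both libraries entered correlations (8 of the 9 members, and Spry4 as an exception). No doublet caller was run; 113 and 223 deep barcodes with a CD3 or Ptprc UMI were left out. UMIs lost or merged upstream would scale levels. Scripts were tested on simulated data. The members and lists were chosen with earlier results of these data known, and the text names all members, their 3 nearest genes, the 10 genes nearest the set, and pathway genes that were called or most counted. Ranking barcodes by gene lists and the choice of T-marked barcodes drew on that knowledge too. Alternatives covered depth minimum, scaling, thinning, single barcodes and cell cycle.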

Additional observations from a re-analysis of the deposited data

How the results depend on the processing

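No paired analysis was possible because each genotype has 1 library, and leaving out a replicate was not possible for the same reason. No member was called under any of 11 other settings for the ratio, and no pair reached 0.1 in both libraries under any of 6 for correlation. The median log2 ratio of the members moved to 0.0016 under median-of-ratios scaling, and stayed 0.0105 to 0.0431 above the median of all genes under all 11. Median pairwise correlations fell to 0.00865 (wild-type) and 0.00695 (humanized) with log1p counts thinned to 5000 UMIs, to 0.00901 and 0.00649 with Spearman correlation of the thinned counts, where 1 barcode holds fewer UMIs of each gene, and to 0.0190 and 0.0162 when depth and cell cycle scores were held. Of 99 single-member ratios under alternatives 12 left the interval. Reversals were counted for called members alone, and since no member was called, none could be found. The signs of Dusp4, Dusp5, Dusp6 and Spred2 did change under median-of-ratios scaling, as given above. Of 432 pair values 140 moved by more than the libraries differ. Leaving out barcodes over 10% mitochondrial UMIs removed none, and dropping the minimum UMIs per gene changes only the genes compared. Both are among the 11 settings, and neither could move a member ratio. Alternatives chosen after seeing the data kept Dusp5 in T-marked over deep barcodes at log2 4.63 to 4.74 and 4.402 to 4.56. Of 36 values for highest over lowest groups 6 moved and 0 reversed, all 6 under thinning; Dusp4 by heat shock was 0.83 in the wild-type library and by hypoxia 0.83 in the humanized one, and Etv5 by G2 and mitosis passed 1.5-fold in both libraries, at 0.73 and 1.17. Depth limits Spry4 and the T-marked values of all members but Dusp5.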
